A study of Mus musculus with 6 samples.

Results

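Keratins, the proteins of the intermediate filaments of epithelial cells, were followed in basal epidermal cells of mice in which Piezo1, a mechanically gated cation channel, had been targeted, in a study of how the skin's stem cells adapt to mechanical load. Members of the family were taken by symbol, as every entry of the expression table named Krt followed by digits and at most 1 letter, which leaves out the keratin-associated Krtap genes. This gave 55 members among 24972 entries, 28 type I (acidic) and 27 type II (basic to neutral) genes. Poly(A) RNA was sequenced from flow-sorted basal cells of back skin in 3 cKO and 3 control samples. The cKO samples came from mice of genotype p63CreER; Piezo1fl/fl; R26-mTmG that received tamoxifen, as 3 injections of 20 ug between postnatal days 45 and 52. Control mice had the same genotype and received vehicle. Both groups therefore carried the inducible Cre, the floxed Piezo1 alleles and the membrane fluorescence reporter, and tamoxifen exposure and deletion cannot be told apart. Cre expression from p63CreER reaches the cells that express p63, which include the basal layer of the epidermis and of the hair follicle, and age at cell isolation is not given in the sources used here. Nothing in the labels ties each sample to its own animal, and p-values here therefore reflect spread among samples that may be partly technical.

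A keratin filament is built from heterodimers, each with a type I and a type II chain, and keratinocytes change their pairs as they mature. Krt5 with Krt14, and partly Krt15, forms the filaments of the basal layer, while Krt1 and Krt10 are switched on as cells leave it. Krt6a, Krt6b, Krt16 and Krt17 are induced by wounding and stress in the epidermis and are made without injury in parts of the hair follicle. Other members belong to the sheaths and the upper part of the follicle, to the hair shaft, or to simple and internal epithelia. The members were grouped by these roles into 3 basal, 8 suprabasal, 4 stress, 11 follicle, 16 hair and 9 simple or internal keratins, with 4 left as other.

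Expression was read as normalized counts. From the smallest steps in the values, cKO replicates 1, 2 and 3 held about 1.05, 15.6 and 14.2 M reads, and control replicates 1, 2 and 3 about 22.4, 24.5 and 20.8 M reads. In cKO replicate 1 each read corresponded to 12.2 normalized counts, and in the other libraries to 0.491 to 0.760, so a count of 0 in that library allows up to 36.7 normalized counts (3 reads, counting error only), against at most 2.28 elsewhere. That shallow library also stood apart in its values, with correlations across genes of 0.814 to 0.855 with the others, and in its ribosomal protein transcripts, 14.1% of the total against 6.51% to 8.48% (genes are not independent replicates). It was the highest library at 9 and the lowest at 4 of the 26 keratins tested. Piezo1 stood at 380, 565 and 399 normalized counts in cKO and at 806, 1098 and 1476 in control libraries (log2 fold change -1.31, SE 0.27; limma adjusted p = 0.744). The female transcript Xist was at 7773, 17829 and 1.05 in cKO and at 13994, 2.82 and 2.85 in control libraries, so the sexes were divided unequally. The 4 T cell markers Cd3d, Cd3e, Cd3g and Cd7 summed to 173 to 521 in cKO and 38.5 to 77.1 in control libraries, and none was at 0 in any library. The Langerhans cell markers Cd207, Cd74 and H2-Aa summed to 1776, 1726 and 8154 in cKO and 1093 to 1384 in control libraries. Among them only Cd74 was separate between the groups, whereas Cd207 and H2-Aa overlapped. Each of them was highest in cKO replicate 3. The part of depth, sex and immune cells in the keratin values was not tested.

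The family took 5.81%, 5.06% and 5.35% of all normalized counts in the cKO libraries and 5.16%, 4.77% and 4.78% in the control libraries. Summed over all members this was 630450 ± 102054 in cKO and 585848 ± 13551 in control cells (SD, n = 3 each). The groups overlapped in the sum, where cKO replicate 1 alone lay above the controls. Most of the signal came from few genes. Of the 55 members, 26 had a mean of at least 10 normalized counts and were tested, and 29 did not. The highest value among those 29 was 37.9, in cKO replicate 1, and 14.4 in any other library. Among all 55, 3 were at 0 in every library, and 22 were at 0 in cKO replicate 1 while above 0 elsewhere.

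To compare members with each other, normalized counts were divided by the exon length of each gene. On this per-kilobase scale Krt5 led with a mean of 110765 normalized counts per kb over the 6 libraries, followed by Krt14 at 82331, Krt15 at 57777 and Krt10 at 21892. These first 4 ranks were the same in all 6 libraries, and each gene lay above the next in every library. Defining markers of the labelled cell type thus headed the list, with Krt14 at 74.3% and Krt15 at 52.2% of the Krt5 level per kb. The suprabasal keratin Krt10 stood at 19.8% of it. From the fifth rank on, neighbours crossed between libraries: Krt77 averaged 8155 per kb, Krt1 5197, Krt17 4915, Krt16 3013, Krt79 1033 and Krt80 853. Krt6a, at rank 11, averaged 270 per kb, and every later member less.

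Ranks of the middle members shifted between libraries. Krt1 ranked 7, 6 and 5 in cKO replicates 1, 2 and 3 and 8, 8 and 7 in control replicates 1, 2 and 3, so the groups met at rank 7. Krt16 ranked 9, 8 and 8 in cKO and 7, 7 and 6 in control libraries. Krt79 ranked 8, 10 and 9 in cKO and 10, 9 and 10 in control libraries, so its ranks overlapped. With mean transcript length or the longest coding transcript as the length, the same 10 members led, and Krt1 moved between ranks 6 and 5. The levels per kb themselves depend on this choice. Exon lengths of Krt1, Krt79 and Krt80 were 4415, 4753 and 6393 bases, against 2455, 2097 and 3067 for the longest coding transcript.

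**Figure D1:**
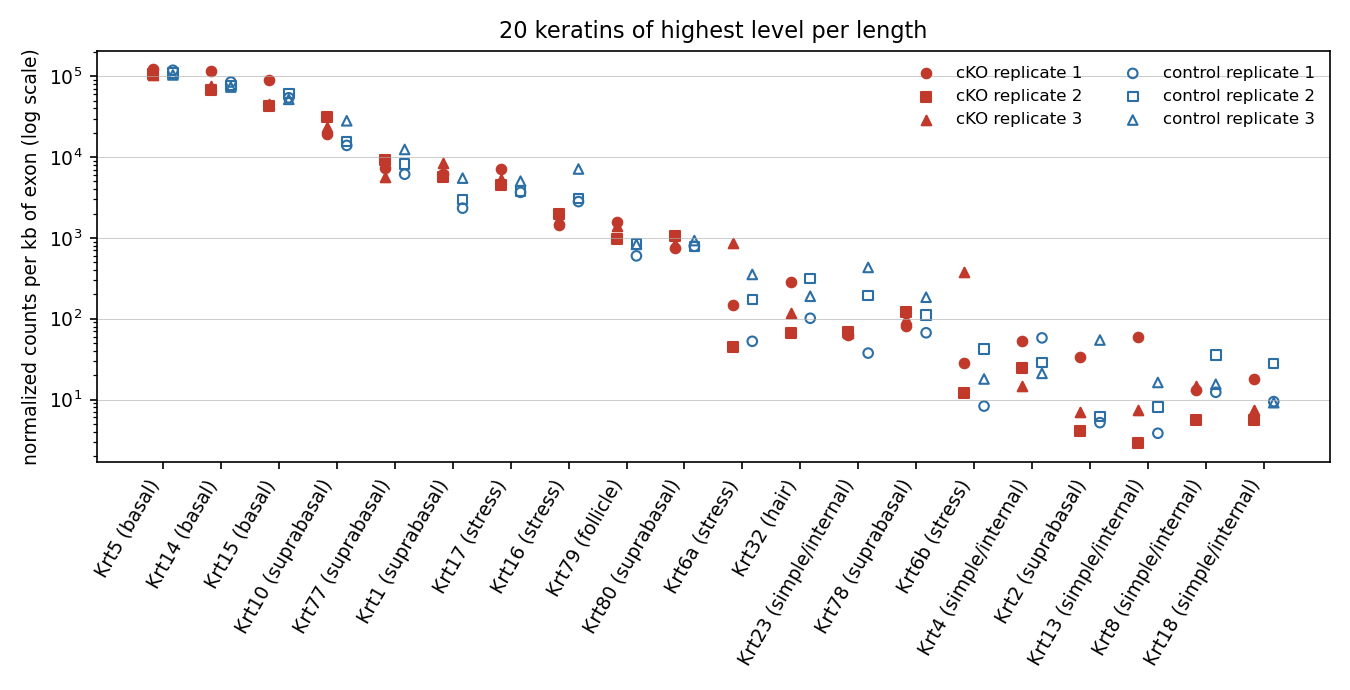
Normalized counts per kb of exon (log scale) for the 20 keratins of highest mean level, with filled red symbols for the 3 cKO and open blue symbols for the 3 control libraries and the role in brackets. Krt5, Krt14, Krt15 and Krt10 keep their order in all 6 libraries, and from Krt77 on neighbours cross.

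Each tested member was then compared between cKO and control cells with limma on log2(value + 1), adjusted over all 12239 genes tested. No keratin passed an adjusted p of 0.05, and no gene of the table did (0.0% of genes, 603 at an unadjusted p under 0.05; limma-voom with sample weights called 2 genes and 0 keratins). The median log2 fold change of the 26 keratins was 0.021, with 15 higher and 11 lower in cKO, beside -0.031 over all genes. Without the shallow cKO replicate 1 the keratin median was -0.25, and without cKO replicate 2 it was 0.21. At an unadjusted p under 0.05, Krt1 and Krt79 were higher in cKO, where 1.47% of all genes lay, and Krt16 was lower, where 3.46% of all genes lay. The groups did not overlap at the same 2 members on the higher side (5.16% of all genes) and at Krt16 and Krt25 on the lower side (5.7% of all genes), with Krt25 counted at its 0 in the shallow library. Of the settings run, only limma with array weights, whose estimate did not converge, called keratins: Krt1, Krt79 and Krt32, among 1568 genes.

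**Figure D2:**
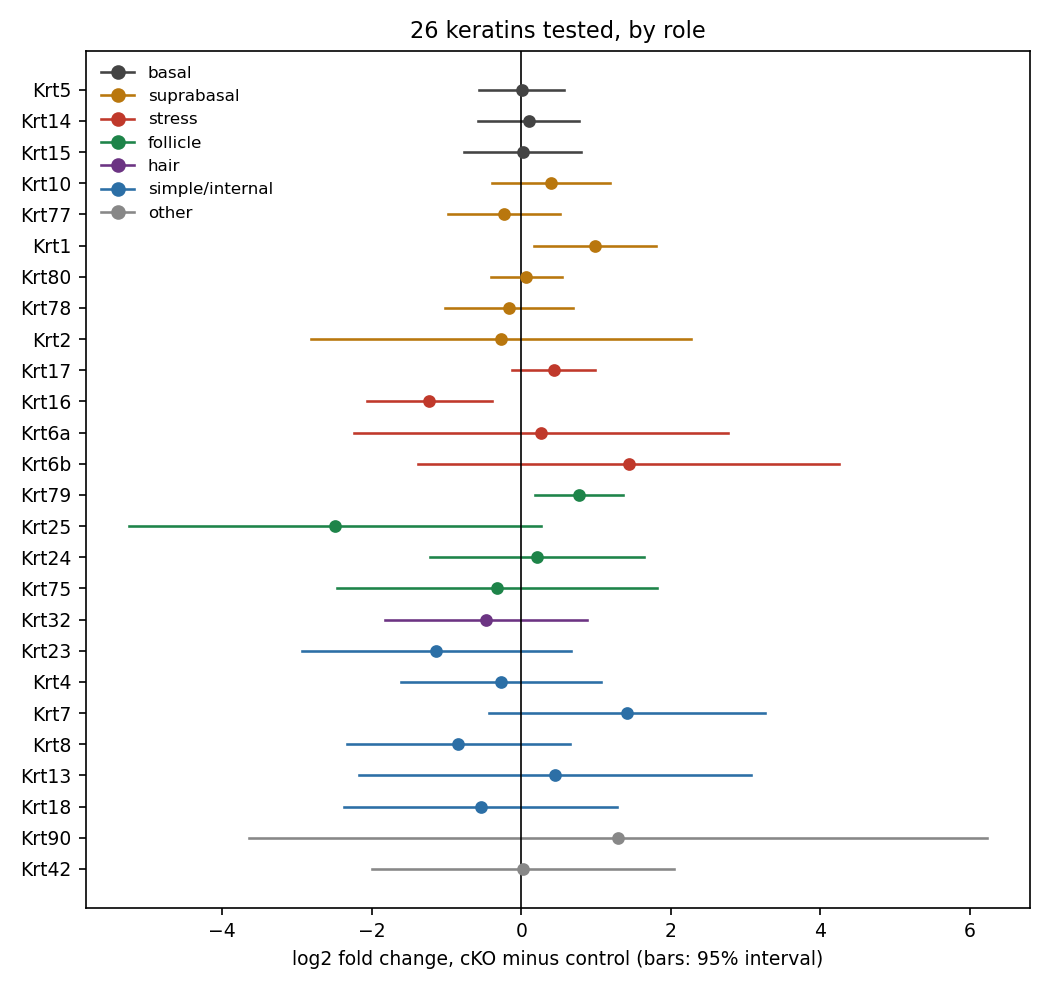
Log2 fold change (cKO minus control) of the 26 tested keratins, coloured and ordered by role, with limma's 95% interval as a bar. The intervals of Krt1, Krt79 and Krt16 leave out 0 before adjustment, and those of low members such as Krt90, Krt25 and Krt6b span several units.

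No difference between cKO and control cells was resolved for the basal keratins. Krt5 (chromosome 15, 101707070 to 101712898, minus strand, GRCm38) gave 266942, 233938 and 230864 normalized counts in cKO and 260877, 239341 and 228148 in control libraries. The fitted log2 difference was 0.0058 (SE 0.24; adjusted p = 0.997) with a 95% interval of -0.56 to 0.57, so a change of more than about 1.49-fold in either direction lay outside the interval. Krt14 (chromosome 11, 100203162 to 100207548, minus strand), the type I partner of Krt5, gave 203481, 117197 and 133973 in cKO and 149201, 135330 and 129245 in control libraries. The cKO libraries lay on both sides of the controls, with replicate 1 above and replicate 2 below all of them (log2 fold change 0.097, SE 0.29, 95% interval -0.57 to 0.77; adjusted p = 0.905). Krt15, a basal keratin that is also known from the stem cells of the hair follicle bulge, gave 161023, 76383 and 80120 in cKO and 95721, 107797 and 91511 in control libraries. Cells of cKO replicate 1 were again highest and the other cKO libraries lay below every control (log2 fold change 0.021, SE 0.34, 95% interval -0.76 to 0.80; adjusted p = 0.987). Without cKO replicate 1 the fitted values were -0.061 for Krt5, -0.14 for Krt14 and -0.33 for Krt15, none past adjustment. In bulk libraries such as these, fewer cells of a kind and less RNA per cell cannot be told apart.

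Among the suprabasal keratins, Krt1 was higher in cKO while its neighbours in role were not separated. Krt1 (chromosome 15, 101845426 to 101850794, minus strand), the type II chain of the early suprabasal filament, was measured at 27247, 24980 and 37749 normalized counts in cKO and at 10299, 13176 and 24228 in control libraries. All 3 cKO values lay above all 3 control values, by a small margin over control replicate 3. The means were 29992 ± 6813 in cKO and 15901 ± 7354 in control cells (SD, n = 3 each). The difference between the mean log2 values was 0.99 with an SE of 0.35 (95% interval 0.17 to 1.80), or 1.98-fold higher. The limma p was 0.0236 before and 0.744 after adjustment. An exact permutation of the libraries (two-sided) gave p = 0.1, its lower limit with 3 samples in each group. Without cKO replicate 1 the log2 fold change was 1.05.

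Krt10 (chromosome 11, 99385254 to 99389364, minus strand), the type I partner of Krt1, gave 40517, 65954 and 49312 in cKO and 29476, 32959 and 59458 in control libraries. Control replicate 3 lay among the cKO values and the other controls below them (log2 fold change 0.40, SE 0.34, 95% interval -0.39 to 1.18; adjusted p = 0.744). Leaving out control replicate 3 gave 0.71, leaving out control replicate 1 gave 0.20, and leaving out cKO replicate 2 gave 0.21. Krt77, a type II keratin whose coding sequence is closest to that of Krt1 (68.27% identity), gave 21621, 26950 and 16479 in cKO and 17984, 23963 and 36412 in control libraries. Its values overlapped (-0.24, SE 0.32), and without control replicate 3 the fitted value was 0.034. The ratio of Krt10 to Krt1 per kb was 3.11, 5.51 and 2.73 in cKO and 5.98, 5.22 and 5.13 in control libraries, with cKO replicate 2 within the control range. Its level depends on the length used. Exon length was 4415 bases for Krt1 and 2114 for Krt10, against 2455 and 2094 for the longest coding transcript. The shorter length of Krt1 lowers the ratio by the same factor in every library. Krt80, at 4747 to 6715 in cKO and 4970 to 5918 in control libraries, varied little (0.069, SE 0.21).

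Krt78 and Krt2, a keratin of late differentiation, were low and gave -0.16 (SE 0.37) and -0.27 (SE 1.09). Krt2 reached 142 normalized counts in control replicate 3 and stood between 10.8 and 88.7 in the other libraries. Krt9, the keratin of palm and sole skin, and Krt76 did not pass the filter on low values. As a group the 8 suprabasal keratins made up 12.6%, 22.0% and 19.0% of keratin counts in cKO and 10.8%, 13.1% and 21.1% in control libraries, so control replicates 2 and 3 lay within the cKO range. The late cornification genes Lor, Ivl, Lce1a1, Sprr2d and Sbsn summed to 10472, 5879 and 5546 in cKO and to 3622, 9068 and 17577 in control libraries. Most of each sum was Sbsn, at 9783, 5542 and 5091 in cKO and 3377, 7381 and 12678 in control libraries (-0.065, SE 0.48). The controls stood in the same order as in the suprabasal keratin share and the cKO libraries did not, since cKO replicate 1 had the highest sum and the lowest share of the 3. All 5 had fitted values below 0, with Lce1a1 and Sprr2d at 0 in cKO replicate 1, and 1 of the 5 had an unadjusted p under 0.05, where 3.46% of all genes lay on the lower side. Their part in the suprabasal values was not tested.

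**Figure D3:**
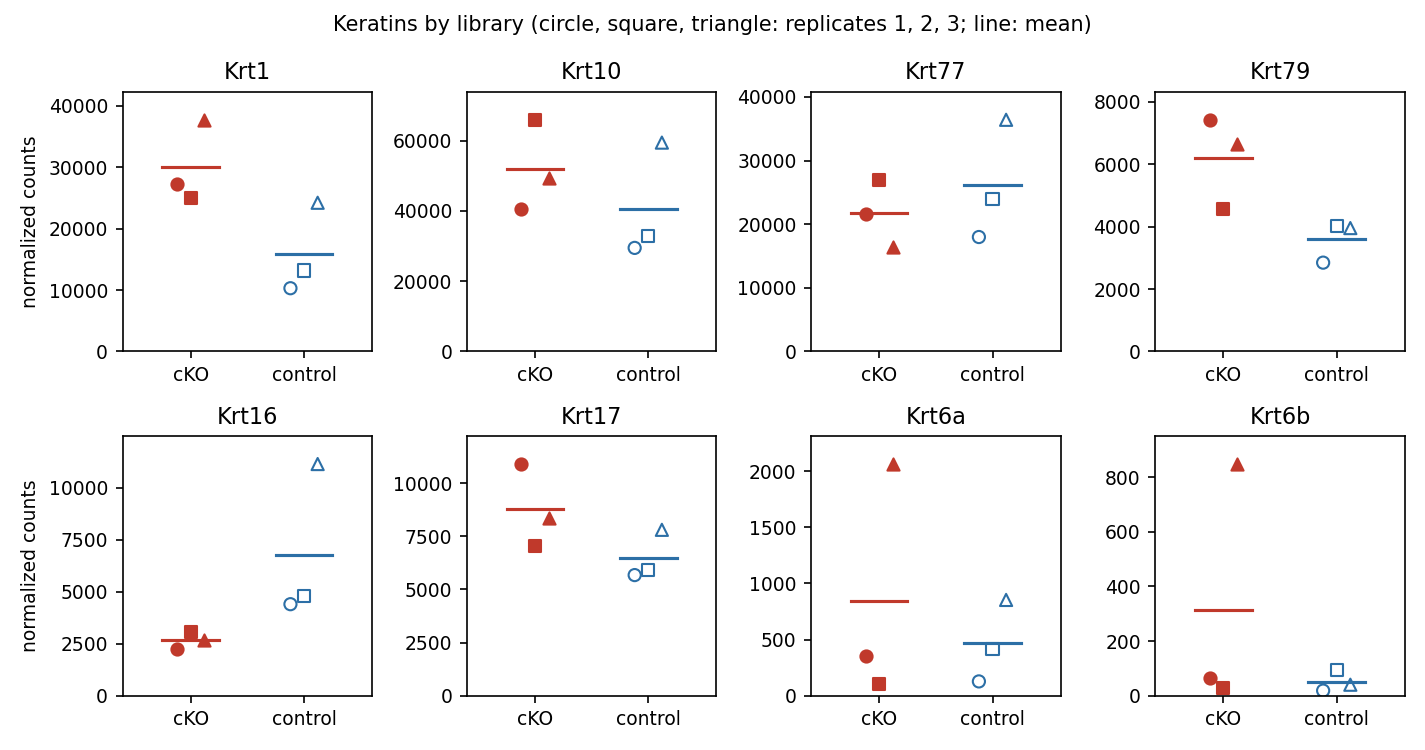
Normalized counts of 8 suprabasal, follicle and stress keratins in each library, cKO in red on the left and control in blue on the right, with circle, square and triangle for replicates 1, 2 and 3 and a line at the mean. The groups are separate for Krt1, Krt79 and Krt16 and overlap for the other 5, and single libraries carry Krt6a and Krt6b.

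The stress keratins did not move as a set: Krt16 was lower in cKO, Krt17 lay mostly higher, and the Krt6 genes varied widely within the groups. Krt16 (chromosome 11, 100246091 to 100248902, minus strand), the type I chain induced in wounded epidermis, was at 2236, 3064 and 2664 normalized counts in cKO and at 4400, 4792 and 11140 in control libraries. Every cKO library lay below every control, and control replicate 3 was far above the rest. The means were 2655 ± 414 in cKO and 6777 ± 3783 in control cells (SD, n = 3 each). The difference between the mean log2 values was -1.23 with an SE of 0.36 (95% interval -2.07 to -0.39), or 2.34-fold lower. The limma p was 0.00995 before and 0.744 after adjustment (exact permutation p = 0.1). Leaving out control replicate 3 gave -0.80, and leaving out cKO replicate 1 gave -1.11.

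Krt17 (chromosome 11, 100256217 to 100261029, minus strand), which lies in the same type I gene cluster, gave 10904, 7069 and 8374 in cKO and 5676, 5912 and 7807 in control libraries. Control replicate 3 lay above cKO replicate 2, so the groups overlapped (0.43, SE 0.24, 95% interval -0.12 to 0.99; adjusted p = 0.744; 0.27 when cKO replicate 1 was left out). The fitted values of the 2 type I stress keratins thus lay on opposite sides of 0. Their ratio per kb, Krt16 over Krt17, was 0.203, 0.430 and 0.315 in cKO and 0.768, 0.803 and 1.41 in control libraries. The groups did not overlap in this ratio, which was chosen after the values were seen and was given no test.

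Krt6a and Krt6b, type II partners of Krt16 and Krt17, are neighbouring keratin genes on chromosome 15 and nearly identical. Their coding sequences share 97.77% of 1659 aligned bases, and 48.5% of the 50-base stretches in the Krt6a transcript also occur in another keratin, as do 44.83% in Krt6b. How reads common to both were counted is not given in the sources used here, so the division between them is uncertain. The coding bases 727 to 876 of both, the 150 bases in which they differ most, are shown 5′ to 3′ as the coding stretch that best tells them apart (GENCODE M21 transcripts, GRCm38). Capitals mark the 19 positions at which the genes differ.
Krt6a: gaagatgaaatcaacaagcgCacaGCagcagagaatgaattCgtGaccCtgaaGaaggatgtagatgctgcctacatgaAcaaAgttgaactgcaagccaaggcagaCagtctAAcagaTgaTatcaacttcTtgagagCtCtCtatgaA
Krt6b: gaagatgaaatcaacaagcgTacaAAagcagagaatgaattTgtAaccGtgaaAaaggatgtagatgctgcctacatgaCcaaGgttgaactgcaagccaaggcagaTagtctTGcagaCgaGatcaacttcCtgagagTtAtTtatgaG
Over the whole alignment 37 coding bases differ. Krt6a was at 355, 107 and 2064 normalized counts in cKO and 127, 416 and 853 in control libraries. Krt6b was at 63.4, 26.6 and 849 in cKO and 18.5, 93.9 and 40.1 in control libraries. Both were highest in cKO replicate 3, and the groups overlapped (0.27, SE 1.08 for Krt6a and 1.44, SE 1.21 for Krt6b). Leaving out cKO replicate 3 gave -0.86 for Krt6a, and leaving out control replicate 1 gave -0.47. The Krt6b value was -0.0086 without cKO replicate 3. Krt16 and Krt14 are also related, with 86.17% of aligned coding bases in common, and 12.4% of the 50-base stretches of Krt16 occur in another keratin. The 4 stress keratins together made up 1.81%, 1.81% and 2.42% of keratin counts in cKO and 1.75%, 1.95% and 3.30% in control libraries.

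The follicle group was dominated by Krt79, which was higher in cKO. Krt79 (chromosome 15, 101929332 to 101940324, minus strand), a type II keratin known in mice from the upper follicle and the cells that line the hair canal, stood at 7427, 4561 and 6651 normalized counts in cKO and at 2847, 4012 and 3955 in control libraries. All cKO values lay above all control values, with cKO replicate 2 nearest to them. The means were 6213 ± 1482 in cKO and 3604 ± 657 in control cells (SD, n = 3 each). The difference between the mean log2 values was 0.77 with an SE of 0.25 (95% interval 0.19 to 1.36), or 1.71-fold higher. The limma p was 0.0165 before and 0.744 after adjustment (exact permutation p = 0.1), and the value was 0.63 without cKO replicate 1. Of the other upper follicle markers listed, Sostdc1 was at 3188, 1334 and 2176 in cKO and 1024, 1092 and 832 in control libraries, while Plet1 was at 2884, 3709 and 1925 in cKO and 3718, 8856 and 13998 in control libraries. Lrig1 overlapped between the groups (0.085, SE 0.20). These markers thus lay on both sides, and their part in the Krt79 value was not tested.

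Krt25, a type I keratin of the inner root sheath, was low in every library. It gave 0, 19.5 and 15.2 normalized counts in cKO and 40.8, 39.2 and 34.3 in control libraries. Replicates 2 and 3 of cKO lay below the controls, whereas the 0 in cKO replicate 1 allows up to 36.7 normalized counts, above control replicate 3, and cannot be placed below them at this depth. The size of the fitted log2 difference, -2.49 (SE 1.18, 95% interval -5.25 to 0.26, adjusted p = 0.744), rests on that library. The difference was -1.10 (SE 0.35) without cKO replicate 1 and -1.20 (SE 0.44) with a pseudocount of 12. In these fits the limma p was 0.0178 and 0.0266 before adjustment, and 0.848 and 0.743 after it. Krt24 gave 12.6 (about 1 read), 27.3 and 39.3 in cKO and 23.6, 21.9 and 16.7 in control libraries. The groups overlapped (0.21, SE 0.62, and -0.13 without cKO replicate 3). Krt75, a keratin of the companion layer, was at 6.43 to 25.3 in cKO and 6.82 to 29.4 in control libraries. Its 25.3 in cKO replicate 1 was about 2.1 reads. The other 7 follicle members, among them the inner root sheath keratins Krt71 and Krt28, were at 5.04 or fewer normalized counts in every library except for 37.8 (about 3 reads) of Krt73 in cKO replicate 1.

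Promoter sequences were matched for 36 keratin genes (37 promoters, RefSeq, GRCm38.p6), and those of Krt79 and Krt25 are given as the matched members among those tested whose groups did not overlap. Each is the 250 bases before the start, written 5′ to 3′ on the minus strand, with the motif TATAAA in capitals where it occurs. Krt79 is taken from chr15:101940325-101940574 and Krt25 from chr11:99322952-99323201.
Krt79: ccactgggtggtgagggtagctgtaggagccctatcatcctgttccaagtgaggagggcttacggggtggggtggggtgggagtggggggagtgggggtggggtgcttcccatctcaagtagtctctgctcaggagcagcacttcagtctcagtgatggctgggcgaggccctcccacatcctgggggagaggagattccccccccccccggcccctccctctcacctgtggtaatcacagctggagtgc
Krt25: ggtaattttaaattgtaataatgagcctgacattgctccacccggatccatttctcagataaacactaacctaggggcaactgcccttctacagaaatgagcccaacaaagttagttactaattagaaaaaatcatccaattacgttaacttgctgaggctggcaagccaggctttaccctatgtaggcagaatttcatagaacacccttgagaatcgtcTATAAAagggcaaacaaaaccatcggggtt
The Krt25 promoter holds TATAAA starting 30 bases before the start, and the Krt79 promoter does not hold these letters. Searched on both strands, TATAAA occurred in 17 of 37 keratin promoters (45.95%) and in 12.37% of all 32851 promoters of the same length. The windows of the basal gene Krt5 and the suprabasal Krt77 held none, whereas Krt10 held it 26 bases before the start. TGANTCA, a loose pattern that takes in the AP-1 letters TGACTCA, occurred in 2 of 37 keratin promoters (5.41%), both of Krt13, and in 6.75% of all promoters. The Krt13 promoter at chr11:100120578-100120827 held TGACTCA, whereas the match at chr11:100121567-100121816 read TGAATCA. The motif matches describe letters only.

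The 11 follicle keratins together made up 1.0%, 0.815% and 1.17% of keratin counts in cKO and 0.503%, 0.712% and 0.673% in control libraries. The groups did not overlap, which is the pattern of Krt79, by far its most abundant member. The hair shaft and inner sheath markers Tchh, Trps1, Msx2, Hoxc13 and Foxn1 summed to 532 to 631 in cKO and 398 to 509 in control libraries. All 5 had fitted values above 0, 1 of them (Foxn1) at an unadjusted p under 0.05 on the higher side, where 1.47% of all genes lay. The bulge markers Cd34, Lgr5, Lhx2, Sox9, Lgr6 and Tcf4 overlapped, with sums of 2175 to 2941 in cKO and 2190 to 3147 in control libraries. Their part in the follicle keratin values was not tested.

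**Figure D4:**
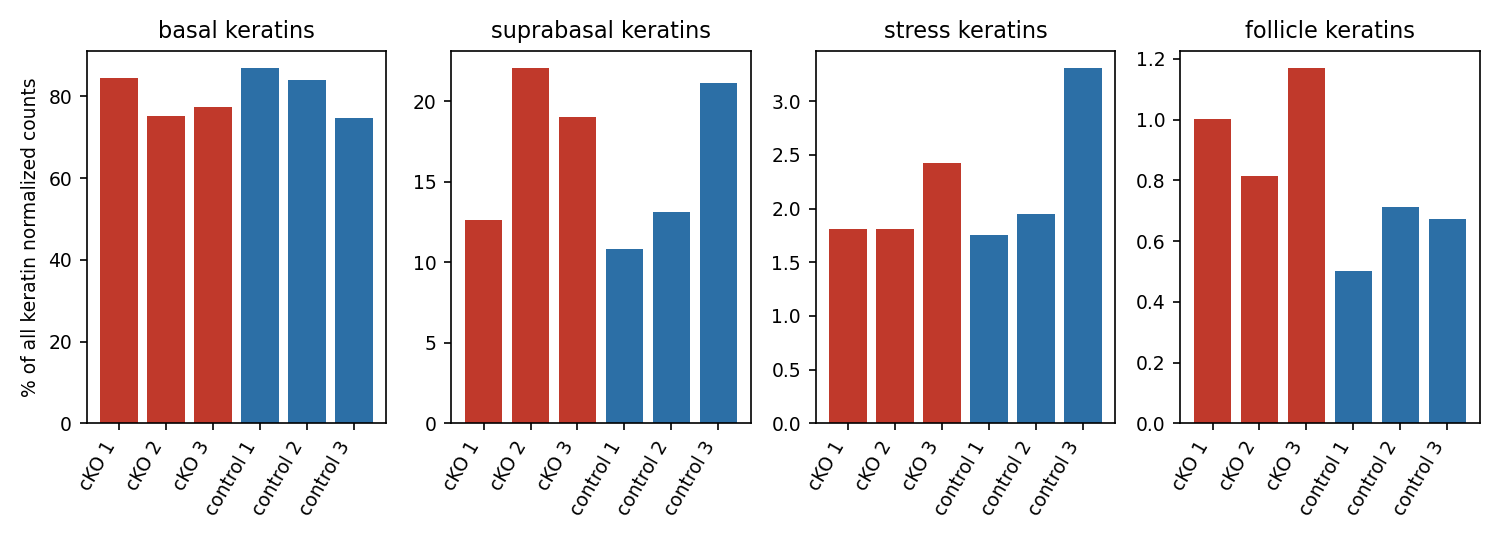
Share of all keratin normalized counts (percent) taken by the basal, suprabasal, stress and follicle keratins in each library, cKO in red on the left and control in blue on the right, on separate axes that start at 0. The libraries overlap in the first 3 groups, and in the follicle group all cKO bars stand above all control bars.

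The hair keratins, hard keratins of the shaft, were nearly silent apart from Krt32. Krt32, a type I keratin known from the cuticle of human hair, gave 491, 116 and 201 normalized counts in cKO and 174, 543 and 326 in control libraries. The groups overlapped and each spread widely (-0.47, SE 0.58; 0.00292 without cKO replicate 2). The other 15 hair keratins did not pass the filter, 2 of them at 0 in every library. Krt31 was at 0, 1.46 and 3.02 in cKO and 4.04, 11.7 and 14.4 in control libraries, where the 0 again allows up to 36.7. Krt33a was at 12.7, 5.03 and 6.03 in cKO, the first being 1 read, and at 0.50, 1.94 and 2.39 in control libraries. Krt31 and Krt33a share 93.15% of aligned coding bases. Of their 50-base stretches, 28.07% in Krt31 and 21.91% in Krt33a occur in another keratin, so the division of reads is uncertain here too. Both were picked out after the values were seen and were left out of the main fit. With no filter on low values, limma gave -2.21 (SE 0.84) for Krt31 and 1.76 (SE 0.73) for Krt33a, each at adjusted p = 0.803. Of 54 Krtap genes, which encode the matrix of the hair shaft, 44 were at 0 in every library, and the sum of all was 19.2 to 45.8 in cKO and 14.5 to 177 in control libraries.

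The keratins of simple and internal epithelia were low in both groups. Krt23, a type I keratin, gave 99.5, 108 and 104 normalized counts in cKO and 58.7, 303 and 674 in control libraries. The cKO values lay close together within the wide control range (-1.14, SE 0.77; adjusted p = 0.744). Leaving out control replicate 3 gave -0.36, and leaving out control replicate 1 gave -2.11. Krt4, which pairs with Krt13 in internal stratified epithelia, gave 114, 52.3 and 31.7 in cKO and 123, 61.3 and 44.9 in control libraries (-0.27, SE 0.57). Its sign turned when cKO replicate 3 (0.15) or control replicate 1 (0.13) was left out. Krt7, a keratin of glandular and ductal epithelia, gave 142, 31.7 and 28.4 in cKO and 40.1, 14.0 and 10.7 in control libraries. Control replicate 1 lay within the cKO range, and cKO replicate 1 held 11.6 reads of it (1.42, SE 0.79; adjusted p = 0.744; 0.68 without that library). As a group the simple keratins summed to 544, 216 and 224 in cKO and 271, 506 and 815 in control libraries, which overlapped.

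Krt8 and Krt18, the pair of simple epithelia and of Merkel cells, were at 10.8 to 29.1 and 7.91 to 25.6 in cKO and at 24.1 to 69.4 and 13.1 to 40.2 in control libraries (-0.84, SE 0.64 and -0.54, SE 0.79). In cKO replicate 1 each of them rested on about 2.1 reads. The Merkel cell markers Atoh1, Sox2, Isl1 and Krt20 stood at 1.80 or less in every library, and Atoh1 and Krt20 were at 0 in 5 of the 6. Krt8 and Krt18 together with these 4 summed to 18.7 to 51.5 in cKO and 38.1 to 110 in control libraries. Krt19 reached 29.9 in cKO replicate 1 and 11.8 or less elsewhere, and did not pass the filter.

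Of the members with no role assigned, Krt42 and Krt90 were tested. Krt42, a type I keratin known from the mouse nail, gave 26.6 (about 2.2 reads), 8.03 and 6.62 in cKO and 8.01, 9.53 and 18.2 in control libraries. Its fitted value was 0.021 (SE 0.87), and -0.56 without cKO replicate 1. Krt90 passed the filter only through cKO replicate 1, at 76.1 normalized counts or about 6.2 reads, with 0.715 and 0 in the other cKO libraries and 0, 0.968 and 3.58 in control libraries. Its fitted value of 1.29 (SE 2.12) rests on that library. Krt222 was at 0 in all 3 cKO libraries and at 2.01, 0.990 and 0.601 in control libraries, 2 of them below what 3 reads are worth there.

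The balance of filament partners was compared on the per-kilobase scale. Type I over type II keratins gave 1.71, 1.20 and 1.24 in cKO and 1.24, 1.32 and 1.34 in control libraries. The means were 1.38 ± 0.28 in cKO and 1.30 ± 0.05 in control cells (SD, n = 3 each), and the groups overlapped. The ratio was above 1 in every library, and cKO replicate 1 was highest. Krt14 over Krt5 was 0.953, 0.626 and 0.725 in cKO and 0.715, 0.707 and 0.708 in control libraries, with an SD of 0.00435 among the controls and cKO libraries on both sides of them. The median log2 fold change was 0.021 over the 12 type I and 0.037 over the 14 type II members tested.

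Genes whose products bind or bundle keratin filaments were given as a list of plakins, desmosomal plaque proteins, filament-aggregating proteins and keratin regulators. Of 15 genes analysed, 14 were tested and 0 passed adjustment or an unadjusted p under 0.05 in either direction, beside 1.47% of all genes on the higher and 3.46% on the lower side. Fitted values were below 0 for 11 and above 0 for 3, with a median of -0.16 beside -0.031 over all genes. The list summed to 151427, 209609 and 159945 in cKO and 167484, 184991 and 231299 in control libraries, which overlapped.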

How the data were processed

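RNA-seq was made from poly(A) RNA of flow-sorted basal epidermal cells, 3 cKO and 3 control samples, and per the labels' protocols the library kit keeps strand. Groups and replicate numbers come from the sample titles. STAR and DESeq2 are named in the submitters' processing notes, with GRCm38 as the build. How reads were counted, and against which annotation, is not given in the sources used here, so reads shared by close paralogs or overlapping genes may be divided in an unknown way. The authors deposited 1 table of a normalized signal for each gene and sample, in read counts that had been scaled and were no longer whole. That it is a read count divided by a factor was read from the values: low values recur near multiples of a smallest step, taken as the worth of 1 read, which varied from gene to gene (5th to 95th percentile 0.914 to 1.09 of the step in cKO replicate 1). Whole reads were therefore not recovered, and the test for normalized values replaced the one for counts.

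Values were tested as log2(value + 1) with limma 3.58.1 in R 4.3.3 (mean-variance trend, robust empirical Bayes, statmod 1.5.0). The added 1 can understate changes of low genes. A 0 in the shallow cKO replicate 1 can instead enlarge them, as at Krt25 (-2.49, and -1.20 with a pseudocount of 12). All 6 libraries entered with no covariates, and 12239 genes with a mean of at least 10 were tested, two-sided, with Benjamini-Hochberg adjustment over all of them at 0.05. Means carry the SD over 3 libraries. Each log2 fold change is the cKO mean of log2(value + 1) minus the control mean, with its SE from limma. It can therefore differ from the ratio of the mean counts. Single members were also tested by an exact permutation of the libraries. Sums and ratios carry no test. The keratins, their role groups and the marker lists were chosen with earlier results of these data known, and so were the tests.

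Lengths and coding sequences came from GENCODE M21 (GRCm38) for 54 members, 27 on chromosome 11 and 27 on chromosome 15, with 1 member unmatched. Coding identity was aligned with Biopython 1.88. Members given in every library are 7 markers (Krt5, Krt14, Krt15, Krt1, Krt10, Krt16 and Krt79), the 3 of highest mean per role group among those tested, and those with an unadjusted p under 0.05 or groups that do not overlap. Krt6b, Krt31, Krt33a, Krt90, Krt222, Sostdc1 and Plet1 were described per library, and Krt73, Krt2, Krt8, Krt18 and Krt19 singled out, after their values were seen. The fitting steps were tested on simulated data. Alternatives tried were the pseudocount, the filter, scaling, threshold, weights, limma-voom, a replicate block, gene length and leaving out each library.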

Additional observations from a re-analysis of the deposited data

How the results depend on the processing

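The keratin median of 0.021 turned negative with limma-voom (-0.095), array weights (-0.17), and without cKO replicate 1 (-0.25) or control replicate 1 (-0.015). Signs were followed for 18 of the tested members. Among these, Krt1, Krt10, Krt16, Krt17, Krt23, Krt25, Krt7 and Krt79 kept their sign in every alternative run. Krt1 ranged from 0.72 to 1.35 (adjusted p = 0.0168 to 0.978, limma), Krt16 from -1.47 to -0.80 (0.0574 to 0.978) and Krt79 from 0.61 to 0.98 (0.0219 to 0.978). The number of genes called was 2 with limma-voom and sample quality weights, which put the median of all genes at 0.14, and 0 to 1 when each library was left out in turn (1 without cKO replicate 2). Array weights called 1568 genes, 3 of them keratins: Krt1 at 1.35, Krt79 at 0.68 and Krt32 at -1.35 (adjusted p = 0.0168, 0.0219 and 0.0487). That estimate of the weights did not converge, and they spanned 0.111 for cKO replicate 1 to 8.98 for control replicate 2. A gene-by-gene estimate, chosen after seeing the data, called 0 genes and put the keratin median at -0.36.

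The others of these 18 members changed sign. Array weights gave -0.028 for Krt14, -0.38 for Krt15, -0.44 for Krt42, -0.043 for Krt5 and -0.73 for Krt90, the gene-by-gene weights -0.050, -0.33, -0.48, -0.037 and -0.61 in the same order, and limma-voom -0.056 for Krt15, -0.30 for Krt42 and -0.13 for Krt90. Leaving out each library in turn gave -0.14 to 0.26 for Krt14, -0.33 to 0.21 for Krt15, -0.13 to 0.65 for Krt24, -1.03 to 0.00292 for Krt32, -0.76 to 0.15 for Krt4, -0.56 to 0.37 for Krt42, -0.061 to 0.059 for Krt5, -0.86 to 1.26 for Krt6a and -0.47 to 0.034 for Krt77. The cause was not tested. With the replicate number as a block (replicate block), 0 keratins and 0 genes were called, and Krt1 gave 0.99 (adjusted p = 0.642). Same-numbered samples correlated at 0.0945, -0.154 and 0.0686 in their deviations from group means. These values lay within the range of differently numbered samples, -0.168 to 0.175. Whether the numbers pair samples by origin was not tested. Depth limits the members of lowest level: 12 of 26 tested had under 10 reads in cKO replicate 1 and 6 at or under 3.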
